A study of Homo sapiens with 6 samples.

Results

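The genes described here are 10 components of bone morphogenetic protein (BMP) signalling, chosen by name: the ligands BMP2, BMP4 and BMP7, the receptors BMPR1A and BMPR2, the secreted antagonists GREM1 and NOG, and the ID targets ID1, ID2 and ID3. All 10 were found among 59653 gene symbols of the count table, and all 10 were among the 17592 genes that passed the filter on low counts. The libraries are mRNA sequencing of PA1, an established cell line from a human ovarian teratocarcinoma. One group of 3 libraries came from cells given a negative control small interfering RNA (siRNA), and the other group of 3 from cells given siRNA against SOX2, a transcription factor of pluripotent and neural progenitor cells. Both groups were labelled wild type in genotype, were transfected while attached, and were moved after 24 h to poly-HEMA plates, which prevent attachment, for a further 72 h. Of the 2 SOX2 siRNAs in the labels it is not said which cells received which, so effects of each siRNA cannot be told apart. The study used 1 cell line, and the labels do not say that same-group libraries came from separate cultures, so p-values measure only the spread between these libraries.

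BMP ligands are secreted dimers that bring type I receptors such as BMPR1A together with type II receptors such as BMPR2 on the cell surface. The receptors phosphorylate SMAD1, SMAD5 and SMAD9, which enter the nucleus with SMAD4 and activate targets, of which the ID genes are the best known. GREM1 and NOG bind ligands outside the cell and keep them from the receptors, and ID proteins pair with basic helix-loop-helix factors and prevent them from binding DNA. In pluripotent cells the pathway is known for steering cells among self-renewal, mesoderm and surface ectoderm, and for restraining neural fates.

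The sequences just upstream of the transcription start are shown for the 3 ID genes, whose levels went 3 different ways, and for GREM1, whose test gave the smallest p of the set. Each line holds 250 bases ending at a RefSeq start (for GREM1 the first of 2 listed starts), from the RefSeq table of build GRCh38.p14, 5′ to 3′ on the strand of the gene. Capitals mark GGCGCC, a GC-rich sequence bound by SMAD proteins, CAGAC, the letters bound by SMAD3 and SMAD4, with the next base where they read CAGACA, and CCAAT, the letters of the CCAAT box, on either strand.
ID1, chr20:31605039-31605288, plus strand: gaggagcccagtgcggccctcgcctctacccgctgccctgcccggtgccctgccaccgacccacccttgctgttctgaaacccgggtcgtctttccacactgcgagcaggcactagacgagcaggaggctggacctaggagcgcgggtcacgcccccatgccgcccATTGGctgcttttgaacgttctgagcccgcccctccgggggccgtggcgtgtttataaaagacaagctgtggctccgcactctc
ID2, chr2:8681806-8682055, plus strand: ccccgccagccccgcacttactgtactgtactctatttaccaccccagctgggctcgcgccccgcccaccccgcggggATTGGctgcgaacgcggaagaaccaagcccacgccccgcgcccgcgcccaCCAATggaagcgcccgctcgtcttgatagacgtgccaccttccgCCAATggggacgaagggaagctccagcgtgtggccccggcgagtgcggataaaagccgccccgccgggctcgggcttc
ID3, chr1:23559502-23559751, minus strand: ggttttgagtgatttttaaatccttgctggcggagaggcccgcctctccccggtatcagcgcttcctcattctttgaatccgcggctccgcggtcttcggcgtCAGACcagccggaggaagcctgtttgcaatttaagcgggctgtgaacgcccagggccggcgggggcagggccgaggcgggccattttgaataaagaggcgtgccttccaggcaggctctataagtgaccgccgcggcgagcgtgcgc
GREM1, chr15:32717754-32718003, plus strand: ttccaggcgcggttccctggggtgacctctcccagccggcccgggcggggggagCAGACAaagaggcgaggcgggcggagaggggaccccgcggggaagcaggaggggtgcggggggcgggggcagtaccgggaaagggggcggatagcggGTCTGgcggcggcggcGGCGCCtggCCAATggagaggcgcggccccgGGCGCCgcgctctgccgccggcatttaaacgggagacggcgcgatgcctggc
In these windows GGCGCC occurred 2 times upstream of GREM1 and in none of the 3 ID genes, and CAGACA occurred 1 time upstream of GREM1 and in none of the ID genes. The shorter CAGAC and CCAAT were searched after the sequences had been read. CAGAC, counted with the CAGACA match, occurred 2 times upstream of GREM1 and 1 time upstream of ID3. CCAAT occurred 3 times upstream of ID2, 1 time each upstream of ID1 and GREM1, and not upstream of ID3. Neither the SMAD palindrome GTCTAGAC nor ACAATG, the core letters of SOX factor sites, occurred in any of the 4. The window of the second GREM1 start, chr15:32718234-32718483, held 1 CAGAC and none of the other letters. Over 35116 promoter windows of the same length, 16.4% held GGCGCC, 13.6% CAGACA, 38.0% CAGAC, 32.0% CCAAT, 9.29% ACAATG and 0.182% GTCTAGAC. A match describes letters and not a bound site, and no match says only that the letters are not in this window. Entries were matched for 7 of the 10 genes, and BMP2, BMP7 and NOG were not matched. Among windows not shown, that of BMPR2 held GGCGCC and CAGACA 1 time each. Of the 3 BMP4 windows, the first held GGCGCC and the third CAGACA, and BMPR1A held neither. The first GREM1 window was 76.8% G or C, against a median of 58% over all windows. The shares over all windows are not matched for this.

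Total counts ranged from 25152313 to 32753184 per library, and 3 counts, taken as the least that can be told from none, equalled 0.0909 to 0.120 CPM, the unit used throughout for counts put on the scale of one library size. Reads copied by PCR carry no molecular identifiers here and are not independent, so these floors cover counting error only. SOX2 itself stood at 245, 265 and 256 CPM in the control libraries and at 51.8, 54.9 and 50.6 CPM after SOX2 siRNA, 20.5% of the control mean, so the targeted gene was low in each library labelled as treated. Of the 8 markers of pluripotent-like teratocarcinoma cells, 7 had a mean above 1 CPM, with TDGF1 at 3 counts or fewer in every library. Their sum was 1649 to 1671 CPM in control and 2035 to 2054 CPM after SOX2 siRNA, but the markers did not move together. LIN28A was at 704 to 710 against 1136 to 1154 CPM, LIN28B at 228 to 250 against 345 to 368 CPM. POU5F1 was at 279 to 313 against 330 to 354 CPM. SOX2, itself in the sum, was lower, as was DPPA4 (3.03 to 3.08 against 1.71 to 2.94 CPM). The groups overlapped for SALL4 (146 to 154 against 142 to 146 CPM) and L1TD1. Markers of immune cells summed to at most 0.937 CPM in any library and those of trophoblast to at most 1.07 CPM. The 4 epithelial markers varied within both groups, summing to 2.195 to 4.73 CPM in control and 0.928 to 5.47 CPM after SOX2 siRNA. The 4 fibroblast markers summed to 28.7 to 30.6 CPM in control and 108 CPM after SOX2 siRNA, almost all of it PDGFRB, while DCN and FAP had at most 4 counts and 1 count. The 3 endothelial markers were all detected and summed to 85.6 to 89.5 CPM in control against 59.4 to 61.8 CPM after SOX2 siRNA. The part of these marker shifts in the results below was not tested. In bulk RNA, fewer cells of a type and less RNA per cell cannot be told apart.

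BMP pathway transcripts differed in both directions between SOX2 siRNA and control cells. BMP2 and ID3 about doubled, GREM1 rose to 156% of its control level, BMP4 and BMPR2 rose slightly, ID2 fell to 64.3% and BMPR1A to 89.9%. BMP7, NOG and ID1 did not pass the test. By edgeR's quasi-likelihood test (Benjamini-Hochberg adjustment across the 17592 tested genes), 7 of the 10 genes had an adjusted p under 0.05, 5 higher and 2 lower, where 28.2% of all tested genes were called (14.8% higher and 13.4% lower). The same 7 were those whose libraries did not overlap between the groups, which held for 41.8% of all tested genes. The median log2 fold change was 0.09 over the 10 genes and -0.00085 over all tested genes. The genes were proposed with results of these libraries in view, so these shares describe them and are not independent evidence.

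**Figure D1:**
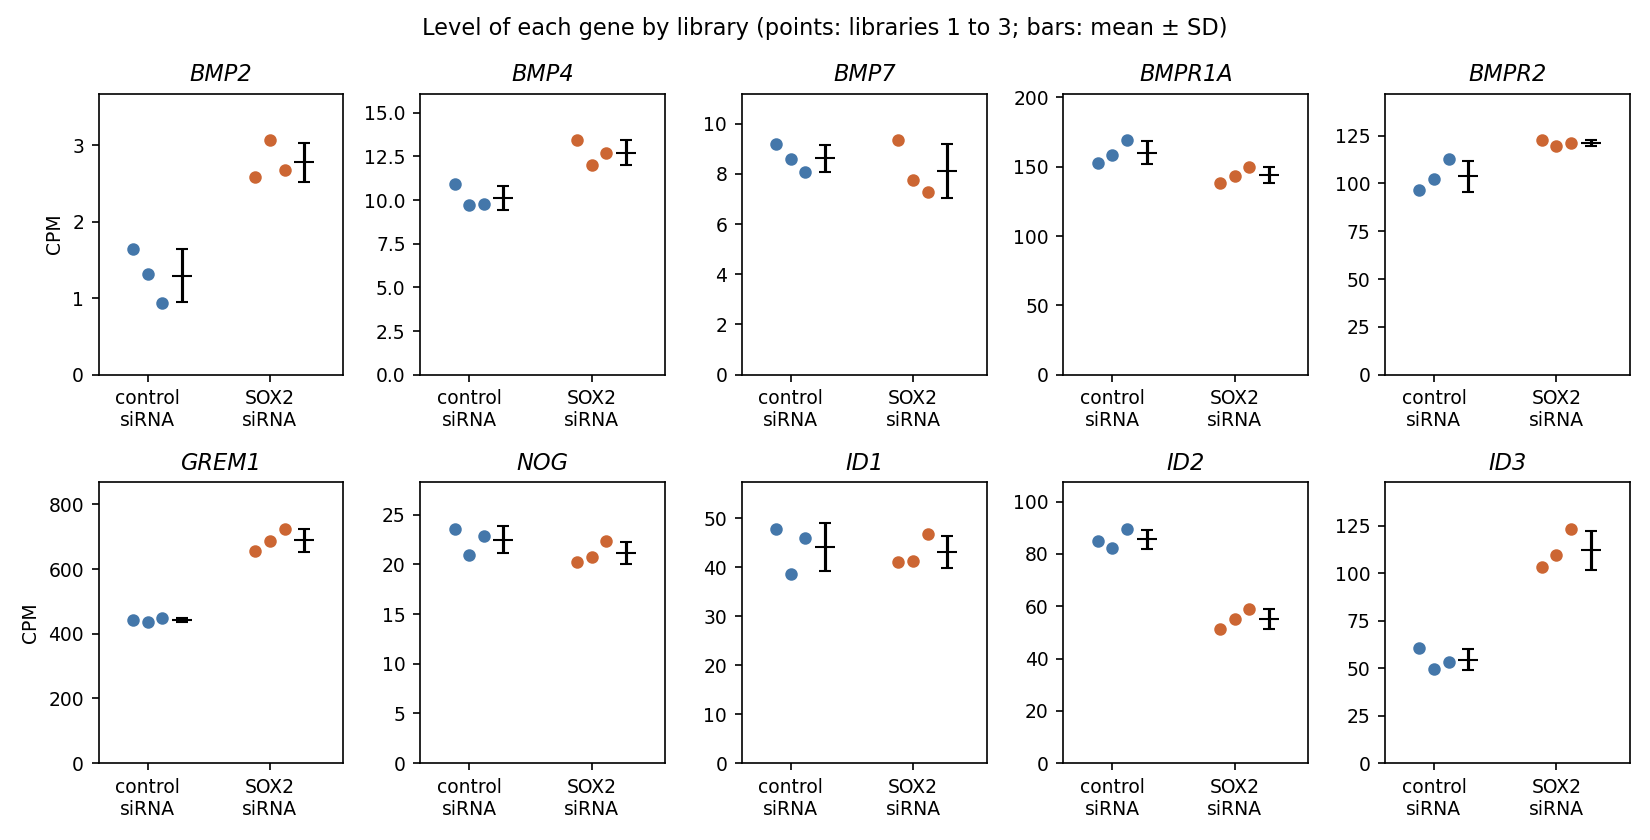
Level of each of the 10 genes in CPM (vertical axes from 0) in the 3 control siRNA libraries (blue) and the 3 SOX2 siRNA libraries (orange), with mean and SD as bars. Control and SOX2 siRNA points are separate for 7 genes and overlap for BMP7, NOG and ID1; GREM1 rises from 443 to 689 CPM and ID2 falls from 85.6 to 55.1 CPM.

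Among the ligands, BMP2, which drives bone and heart formation, was the scarcest gene of the set per exon length. Its counts were 54, 33 and 27 in the control libraries and 78, 99 and 80 after SOX2 siRNA, or 1.64, 1.32 and 0.934 against 2.58, 3.06 and 2.68 CPM. Every SOX2 siRNA library was above every control library, although the control libraries spread widely around their mean. The means were 1.30 ± 0.352 and 2.77 ± 0.253 CPM (SD, n = 3), and the log2 fold change was 1.09 (SE 0.204; edgeR, Benjamini-Hochberg adjusted p = 5.90e-04). BMP2 lies on chromosome 20, plus strand, 6767664 to 6780280 (GRCh38, GENCODE 29, as are all gene positions given here).

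BMP4, a ligand close in sequence to BMP2 and used to drive pluripotent cells towards mesoderm and trophoblast, was measured at 10.9, 9.70 and 9.79 CPM in control and 13.4, 12.03 and 12.7 CPM after SOX2 siRNA. The groups did not overlap, but the gap between the highest control and the lowest SOX2 siRNA library was small. Its log2 fold change was 0.32 (SE 0.080; edgeR adjusted p = 0.00540), a size exceeded in either direction by 23.9% of all tested genes. BMP7, a ligand of kidney and eye development, was at 9.18, 8.58 and 8.09 CPM in control and 9.34, 7.76 and 7.30 CPM after SOX2 siRNA. The highest and the lowest of its 6 values both belonged to the SOX2 siRNA group, and the log2 fold change of -0.09 did not pass the test (95% interval -0.30 to 0.13; edgeR adjusted p = 0.589). BMP4 (chromosome 14, minus strand, 53949736 to 53958761) and BMP7 (chromosome 20, minus strand, 57168748 to 57266629) overlap no exon of another gene in GENCODE 29, and neither does BMP2.

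Set on a per-length scale (CPM per kb of exon in GENCODE 29), BMP4 was the most abundant of the 3 ligands in both groups, at 3.29 ± 0.218 in control and 4.13 ± 0.225 after SOX2 siRNA (SD, n = 3). BMP7 followed at 1.59 ± 0.1004 and 1.501 ± 0.198, and BMP2 was last at 0.360 ± 0.0976 and 0.771 ± 0.0703. The order did not change between groups. The ratio of BMP2 to BMP7 within a library, which does not depend on how libraries are scaled, was 0.268, 0.231 and 0.174 in control and 0.416, 0.593 and 0.552 after SOX2 siRNA. BMP2 therefore remained below BMP7 in each library while the distance between them narrowed. The summed level of the 3 ligands was 5.24 ± 0.398 CPM per kb in control and 6.40 ± 0.343 after SOX2 siRNA (SD, n = 3; exact two-sided permutation p = 0.1, the smallest that 3 against 3 libraries allow).

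The receptors moved little and in opposite directions. Of all tested genes, 48.2% changed by more than BMPR1A and 35.4% by more than BMPR2, in either direction. The type I receptor gene BMPR1A was at 153, 158 and 169 CPM in control and 138, 143 and 150 CPM after SOX2 siRNA, with the lowest control library only just above the highest treated one. Its log2 fold change of -0.15 (SE 0.043; edgeR adjusted p = 0.0131) was no longer called when control replicate 3 (-0.11, adjusted p = 0.0997) or SOX2 siRNA replicate 2 (-0.15, adjusted p = 0.0503) was left out. The type II receptor gene BMPR2, whose loss of function underlies heritable pulmonary arterial hypertension, was at 96.5, 102 and 113 CPM in control and 122, 119 and 121 CPM after SOX2 siRNA. The control libraries varied more than the treated ones, and all 3 lay below them (log2 fold change 0.22, SE 0.048; edgeR adjusted p = 0.00249). Within libraries the ratio of BMPR2 to BMPR1A per exon length was 0.607, 0.620 and 0.639 in control and 0.849, 0.798 and 0.776 after SOX2 siRNA, a 1.30-fold rise with no overlap of the groups. BMPR1A lies on chromosome 10, plus strand, 86756601 to 86932838, and BMPR2 on chromosome 2, plus strand, 202376936 to 202567751.

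The antagonists differed from each other. GREM1, the gene of the cystine-knot protein gremlin that binds BMP2, BMP4 and BMP7, most often studied in limb, kidney and intestine, was at 443, 438 and 448 CPM in control and 655, 689 and 725 CPM after SOX2 siRNA. The control libraries lay within 9.8 CPM of each other, whereas the treated ones spread over 69.7 CPM and stood well above. The log2 fold change was 0.64 (SE 0.038; edgeR adjusted p = 7.51e-10), and 8.56% of tested genes changed by more in either direction. GREM1 lies on chromosome 15, plus strand, 32717974 to 32745107. GENCODE 29 places 188 of its exonic bases opposite exons of AC090877.2, an antisense transcript with at most 10 counts in any library.

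NOG, the gene of noggin, a BMP antagonist of the organizer and neural tube, was at 23.6, 21.0 and 22.9 CPM in control and 20.2, 20.8 and 22.4 CPM after SOX2 siRNA. NOG lies on chromosome 17, plus strand, 56593699 to 56595590. The groups overlapped, and the log2 fold change of -0.09 did not pass the test (95% interval -0.23 to 0.04; edgeR adjusted p = 0.318). Per exon length GREM1 was 2.43, 2.71 and 2.54 times as abundant as NOG in the control libraries and 4.19, 4.30 and 4.20 times after SOX2 siRNA. The size of these ratios depends on the exon lengths used, 14606 bases for GREM1 and 1892 for NOG. Without division by length the gap was much wider, with means of 443 against 22.5 CPM in control and 689 against 21.1 CPM after SOX2 siRNA. The 1.66-fold rise of the ratio does not depend on the lengths. The summed level and the ratio to BMP4 that follow depend on exon lengths too. Their summed level rose from 42.2 ± 0.988 to 58.4 ± 2.95 CPM per kb (SD, n = 3; exact two-sided permutation p = 0.1). The ratio of GREM1 to BMP4 per exon length was 8.57, 9.52 and 9.65 in control and 10.3, 12.08 and 12.02 after SOX2 siRNA, so antagonist transcript exceeded that of the most abundant of the 3 ligands in each library.

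The ID genes, all classed as direct SMAD targets, went 3 ways. ID3 was at 60.5, 49.6 and 53.0 CPM in control and 103, 109 and 123 CPM after SOX2 siRNA. The lowest treated library was well above the highest control library, and the log2 fold change was 1.04 (SE 0.095; edgeR adjusted p = 3.20e-04). ID3 lies on chromosome 1, minus strand, 23557918 to 23559794.

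ID2 was at 84.9, 82.4 and 89.6 CPM in control and 51.3, 55.1 and 58.8 CPM after SOX2 siRNA. All treated libraries were below all control libraries by a gap wider than the spread of either group (log2 fold change -0.64, SE 0.051; edgeR adjusted p = 4.87e-08). ID2 lies on chromosome 2, plus strand, 8678845 to 8684453, and 38 of its exonic bases (1.72%) lie opposite ID2-AS1. ID2-AS1 fell from a mean of 6.30 to 4.03 CPM (log2 fold change -0.65; edgeR adjusted p = 8.23e-04). Whether counting used strand is not given in the sources used here, so reads from the shared bases cannot be assigned to either gene.

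ID1, often used as the readout of BMP activity, was at 47.8, 38.6 and 45.9 CPM in control and 41.0, 41.3 and 46.8 CPM after SOX2 siRNA. The groups overlapped throughout. ID1 lies on chromosome 20, plus strand, 31605283 to 31606515. Its log2 fold change of -0.04 did not pass the test, and the 95% interval of -0.23 to 0.15 (edgeR adjusted p = 0.781) covers changes up to those sizes in either direction.

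**Figure D2:**
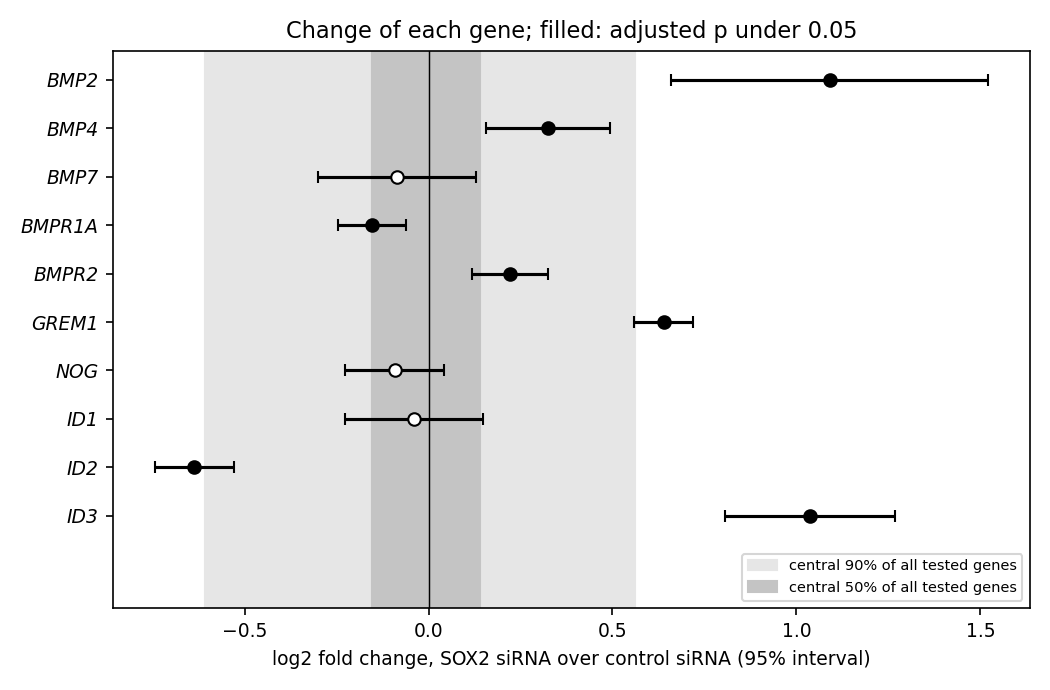
Log2 fold change of each of the 10 genes, SOX2 siRNA over control siRNA (horizontal axis), with 95% intervals from the edgeR fit; filled points had an adjusted p under 0.05, and grey bands mark the central 50% (-0.16 to 0.14) and 90% (-0.61 to 0.56) of all tested genes. BMP2, ID3 and GREM1 lie to the right of the wider band and ID2 lies to its left. BMP7, NOG and ID1 lie inside the narrower band, as does BMPR1A, which was called, at its lower edge.

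Within libraries the shift between ID genes was plain. The ratio of ID3 to ID2 per exon length was 0.875, 0.738 and 0.727 in control and 2.47, 2.44 and 2.57 after SOX2 siRNA, a 3.21-fold rise that turned the order of the genes around. The ratio of ID3 to ID1 rose 2.11-fold and that of ID1 to ID2 rose 1.52-fold, with no overlap of the groups in either. In all, 9 ratios between pairs of the 10 genes were computed, after the values were known; the exact two-sided permutation p of each was 0.1, the smallest this design allows, and 0.1 after adjustment over the 9.

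ID4, the remaining family member, was added to this comparison after its values were seen. It was the most abundant ID gene in control cells, at 78.5 ± 6.24 CPM per kb, and stood at 56.4 ± 4.85 after SOX2 siRNA (SD, n = 3; log2 fold change -0.48, SE 0.078; edgeR adjusted p = 0.00339). In control cells ID2, ID1 and ID3 followed at 38.8 ± 1.64, 35.8 ± 3.93 and 30.3 ± 3.12 CPM per kb, of which ID2 and ID1 differed by less than the SD of ID1. After SOX2 siRNA the order was ID3 (62.3 ± 5.74), ID4, ID1 (34.9 ± 2.65) and ID2 (24.98 ± 1.71). The means of ID3 and ID4 were apart by about 1 SD, and ID3 was the higher in each SOX2 siRNA library (57.4, 60.9 and 68.6 against 52.25, 55.2 and 61.7). Without division by exon length ID4 was the higher in each of these libraries. ID4 was then at 122.5, 129.4 and 144.7 CPM, against 103.2, 109.4 and 123.3 CPM for ID3. The share of ID3 in the family total went from 16.5% ± 1.40 to 34.9% ± 0.322, that of ID2 from 21.2% ± 0.685 to 14.0% ± 0.313 and that of ID4 from 42.8% ± 1.96 to 31.6% ± 0.121 (SD, n = 3), while ID1 stayed at 19.5% and 19.6%. The total of the 4 genes was 187, 170 and 193 CPM per kb in control and 166, 175 and 195 after SOX2 siRNA. These totals overlapped (exact two-sided permutation p = 0.8). Without ID4, the sum of ID1, ID2 and ID3 was 105 ± 7.63 CPM per kb in control and 122 ± 9.96 after SOX2 siRNA (SD, n = 3; ratio 1.17), with no overlap of the groups (exact two-sided permutation p = 0.1). Shares, totals and the order of the genes depend on the exon lengths taken from GENCODE 29.

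**Figure D3:**
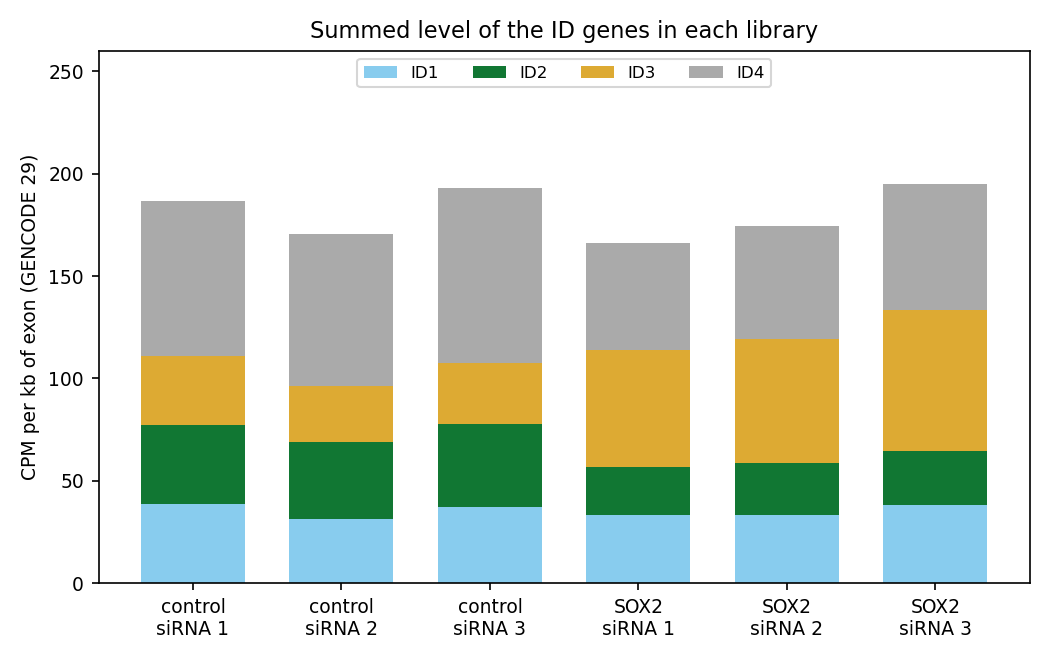
Summed level of ID1, ID2, ID3 and ID4 in each library in CPM per kb of exon (vertical axis from 0), control siRNA 1 to 3 on the left and SOX2 siRNA 1 to 3 on the right. The totals lie between 166 and 195 in all 6 libraries, while the ID3 segment widens and the ID2 and ID4 segments narrow after SOX2 siRNA.

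The E proteins, ubiquitous helix-loop-helix factors that ID proteins sequester, gave no call. TCF3, TCF4 and TCF12 had log2 fold changes of 0.07, 0.02 and -0.03 (edgeR adjusted p = 0.179, 0.717 and 0.613), and none of the 3 had an unadjusted p under 0.05 or a call in DESeq2. Their summed level was 43.9 ± 0.619 CPM per kb in control and 44.7 ± 0.252 after SOX2 siRNA (SD, n = 3).

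A wider list of 97 BMP pathway genes, including the 10, was then described by role. Of these, 81 were tested and 44 had an adjusted p under 0.05, 29 higher and 15 lower (54.3%, against 28.2% of all tested genes); without the 10 genes it was 37 of 71 (52.1%). The median log2 fold change over the 81 was 0.07. Of the 44 called genes, 13 reached 2-fold, where 557 of the 4964 called among all tested genes did. The list was written with some results of these libraries known.

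Ligands were called in 1 direction, with 4 of 12 tested genes higher and none lower at an adjusted p under 0.05 in edgeR; the same counts came from DESeq2, and at an unadjusted p under 0.05 GDF11 (log2 fold change -0.13) was the 1 lower ligand. The share called, 33.3%, was near the 28.2% of all tested genes. Beside BMP2 and BMP4, BMP5 rose from 16.3 ± 1.67 to 26.0 ± 0.573 CPM (log2 fold change 0.68; edgeR adjusted p = 8.79e-07). GDF10, also called BMP3B, rose from 3.22 ± 0.236 to 6.96 ± 0.385 CPM (SD, n = 3, with a log2 fold change of 1.10; edgeR adjusted p = 1e-06). The 7 ligands not tested had too few counts, among them BMP10 and GDF2, which signal to endothelium. BMP10 had at most 1 count in any library and GDF2 had 0.

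Receptors were called in 5 of 8 cases (62.5%, against 28.2% of all tested genes), 4 higher and 1 lower. The type I receptor ACVR1 rose from 70.0 ± 4.23 to 103 ± 2.94 CPM (SD, n = 3, with a log2 fold change of 0.55; edgeR adjusted p = 6.33e-08), and BMPR1B from 13.7 ± 1.43 to 19.4 ± 0.866 CPM (log2 fold change 0.50; edgeR adjusted p = 8.81e-05). BMPR1A, which fell, was thus the 1 type I receptor gene with a call in that direction among ACVR1, BMPR1A, BMPR1B and ACVRL1. AMHR2, the anti-Müllerian hormone receptor, had a log2 fold change of 1.09 (edgeR adjusted p = 0.0121) at 0.467 ± 0.199 and 1.02 ± 0.0841 CPM, and lost its call in DESeq2 (adjusted p = 0.0628) and without control replicate 2 (0.0642) or 3 (0.0690).

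The SMAD genes that carry the signal were not called. SMAD1, SMAD5, SMAD9 and SMAD4 had log2 fold changes of -0.10, -0.09, 0.12 and -0.02, with edgeR adjusted p-values of 0.201, 0.0871, 0.590 and 0.711. DESeq2 called none of the 4 either, and SMAD5 was the 1 gene with an unadjusted p under 0.05 in edgeR. Protein phosphorylation, through which these factors are activated, is not seen by RNA counts.

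Genes listed as extracellular antagonists held the widest changes, with 8 of 15 tested genes higher and 3 lower (73.3% called, against 28.2%). Whether each of them acts as an antagonist in these cells was not tested. CER1, which binds BMP and Nodal ligands, rose from 3.60 ± 0.373 to 20.4 ± 0.453 CPM (SD, n = 3, with a log2 fold change of 2.51; edgeR adjusted p = 5.39e-13). CRIM1, a transmembrane BMP-binding protein, rose from 34.7 ± 0.810 to 57.1 ± 3.13 CPM (log2 fold change 0.71; edgeR adjusted p = 8.19e-09). FST, which binds activin tightly and BMPs more weakly, fell from 978 ± 14.2 to 303 ± 11.5 CPM (log2 fold change -1.69; edgeR adjusted p = 1.93e-15).

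Inhibitors inside the cell and at its membrane were called in 6 of 14 cases (42.9%, against 28.2%), 5 higher and 1 lower. The pseudoreceptor gene BAMBI rose from 27.8 ± 1.23 to 40.8 ± 2.64 CPM (SD, n = 3, with a log2 fold change of 0.55; edgeR adjusted p = 1.04e-06), and SMAD6, the inhibitory SMAD specific to the BMP branch, from 9.53 ± 0.190 to 13.2 ± 1.36 CPM (log2 fold change 0.47; edgeR adjusted p = 4.87e-04). TOB1, a repressor of SMAD activity, and CTDSP1, a SMAD phosphatase, had log2 fold changes of 0.52 and 0.30 (edgeR adjusted p = 7.21e-06 and 1.38e-04). Of the co-receptors and processing enzymes, 3 of 10 were higher and 3 lower (60.0% called). BMP1, a protease that cleaves chordin and is not itself a BMP ligand, had a log2 fold change of 0.46, the TGF-beta co-receptor ENG of 0.42 and the proprotein convertase FURIN of 0.23, while the BMP co-receptor RGMA was at -0.46 (edgeR adjusted p = 8.30e-05, 2.53e-04, 5.86e-04 and 1.48e-04).

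Targets were called in 14 of 22 cases (63.6%, against 28.2%), 7 in each direction, with a median log2 fold change of -0.0054. Beside ID3, HEY1, a repressor that BMP and Notch signals both induce, rose from 4.99 ± 0.782 to 11.1 ± 0.846 CPM (SD, n = 3, with a log2 fold change of 1.15; edgeR adjusted p = 3.42e-07). BAMBI and SMAD6, listed above as inhibitors, are targets as well. Beside ID2, CDX2, a caudal-type factor of trophoblast and posterior tissues, fell from 11.4 ± 0.639 to 3.94 ± 0.407 CPM (log2 fold change -1.54; edgeR adjusted p = 3.37e-09), and the surface ectoderm and neural crest factor TFAP2A from 181 ± 1.45 to 135 ± 1.10 CPM (log2 fold change -0.43; edgeR adjusted p = 4.07e-08). Exons of TFAP2A, TOB1, ENG, CRIM1 and BMP1 overlap those of antisense genes, each of which had at most 30 counts in any library. CTDSP1 also overlaps an antisense gene, and RGMA and BMP1 overlap a gene on the same strand, which leaves those values uncertain. The same-strand gene at BMP1 shares 6.17% of the exonic bases of BMP1 and had at most 7 counts in any library. The genes that overlap CTDSP1 and RGMA are not in the count table.

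**Figure D4:**
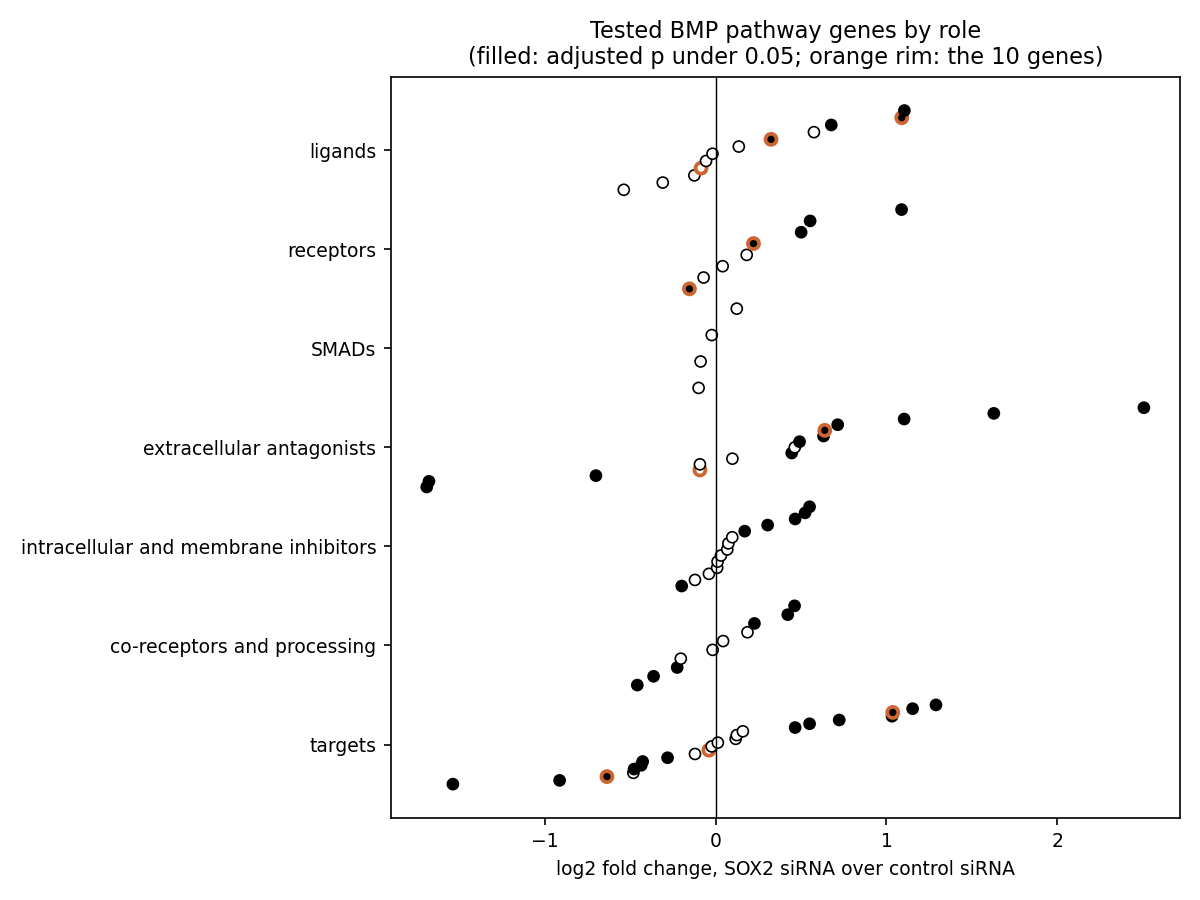
Log2 fold change, SOX2 siRNA over control siRNA (horizontal axis), of the 81 tested genes of the wider BMP pathway list by role, each point a gene and genes with 2 roles shown under both; filled points had an edgeR adjusted p under 0.05 and orange rims mark the 10 genes. Genes listed as extracellular antagonists spread from -1.69 (FST) to 2.51 (CER1), the 4 signalling SMADs stay near 0, and targets extend to both sides.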

How the data were processed

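Raw counts per gene symbol were deposited by the authors for 6 mRNA libraries made with a KAPA mRNA HyperPrep kit from Trizol RNA, per the labels' protocols. The submitters' processing notes name bcl2fastq 2.20.0, STAR 2.7.3a, Salmon 0.14.1, DESeq2 1.28.1 and GRCh38.p13; which tool counted, its annotation and its use of strand are not given in the sources used here. Groups and replicate numbers came from the titles, and columns were matched by the description.

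Counts were analysed in R 4.3.3 with edgeR 4.0.16: filterByExpr (minimum count 10), TMM scaling, robust quasi-likelihood fit and test on group over all genes, Benjamini-Hochberg adjustment, threshold 0.05. CPM uses scaled library sizes. SE is the log2 fold change over the square root of F. Single values were compared by exact two-sided permutation. Alternatives were DESeq2 1.42.0 (Wald test, size factors), upper-quartile scaling, other filters, a replicate block and each library left out. On simulated counts with 197 changed genes of 17288, the procedure recovered 79.2% of the changes, and 1.89% of its calls were false. Far fewer genes changed there than were called in the data, so the simulation does not give the error rate of the calls reported here. Exon lengths, positions and overlaps came from GENCODE 29 (GRCh38), which need not be the authors' annotation; promoters came from RefSeq (GRCh38.p14).

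Same-group libraries differed by 2.86 to 6.33 in chi-square per degree of freedom, above sampling noise. The 10 genes and all lists were chosen with earlier results of these data known. Named beside the 10 genes are SOX2, markers, E proteins and, per role, up to 4 called genes with the smallest p; others (ID4, ID2-AS1, single counts) were chosen after their values were seen.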

Additional observations from a re-analysis of the deposited data

How the results depend on the processing

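Over 12 alternatives SOX2 kept its direction and call, with log2 fold changes from -2.32 to -2.25. The number of called genes ranged from 3760 (without SOX2 siRNA replicate 2) to 5212 (no filter beyond 1 count), against 4964; that of the 10 BMP genes was 6 or 7, and that of the wider list 40 to 46, against 44. Upper-quartile scaling gave 45.8% of calls in the higher direction, against 52.4%, and left the calls of the 10 genes at 5 higher and 2 lower. Of 120 values for the 10 genes under alternatives, 117 kept direction and side of the threshold; BMPR1A lost its call 2 times, and ID1, never called, changed sign without control replicate 1 (0.0236, adjusted p = 0.883; leave-one-out range -0.123 to 0.0236). The cause was not tested.

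Both groups carry replicate numbers 1 to 3, whose meaning the labels do not give. Deviations of same-numbered libraries correlated at 0.0868, -0.0377 and -0.0311, within the range for different numbers (-0.120 to 0.155), so the numbers were not taken to pair the samples. With the replicate block 5177 genes, 7 of the 10 and 45 of the wider list were called, and SOX2 was at -2.28. Depth limits genes with few counts; BMP2 had 27 to 99 per library.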

Other observations

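Some genes of the wider BMP list that changed at least 2-fold fall outside the rule for naming and were chosen after their values were seen. Among genes listed as antagonists, NBL1, a DAN-family protein, rose from 0.768 ± 0.175 to 2.41 ± 0.246 CPM (SD over 3 libraries, edgeR adjusted p = 1.79e-05). BMPER, a crossveinless-type BMP binder, rose from 0.646 ± 0.101 to 1.40 ± 0.127 CPM (edgeR adjusted p = 0.00201). NBL1 shares 15.4% of its exonic bases with the same-strand gene MINOS1-NBL1 and 3.64% with MINOS1 in GENCODE 29, which leaves its value uncertain. CHRDL1, a chordin-like antagonist, fell from 2.38 ± 0.382 to 0.740 ± 0.229 CPM (edgeR adjusted p = 3.64e-05). Among targets, ATOH8, a helix-loop-helix factor, rose from 2.01 ± 0.163 to 4.92 ± 0.693 CPM, and HAND1, a factor of extraembryonic and cardiac mesoderm, from 1.68 ± 0.166 to 3.44 ± 0.313 CPM (edgeR adjusted p = 4.81e-06 and 1.03e-04). Each of these genes was below 5.6 CPM in every library.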
